A study of Mus musculus with 10 samples.

Results

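The 10 genes described here are the Notch receptors *Notch1*, *Notch2*, *Notch3* and *Notch4*, the ligand genes *Dll1*, *Dll3*, *Jag1* and *Jag2*, and the target genes *Hes1* and *Hey1*. They were chosen by name as the rows of a table of 34591 mouse genes that carry these symbols, and all 10 were found. The libraries come from mouse embryonic stem cells (mESCs) of the male C57/BL6 line Bruce-4, kept undifferentiated in a medium with the GSK3β inhibitor CHIR 99021, the MEK inhibitor PD 0325901 and LIF. WT cells were compared with *Dnttip1* KO cells (clones D2A7 and D1E6) and *Elmsan1* KO cells (clones E2E8 and E2G7), made from them by CRISPR/Cas9. DNTTIP1 and ELMSAN1 are scaffold subunits of the mitotic deacetylase complex MiDAC, which holds the histone deacetylase HDAC1. Each of the 5 lines has 2 libraries, 10 in all, and each KO line grew from a single sorted cell, so a knockout is represented by 2 clones. Clones are named by their codes, since the labels disagree on which *Dnttip1* clone is KO1. All lines share the medium and the parental cells, and no group was differentiated. The KO lines also differed from WT over whole chromosomes. Among genes averaging 1 FPKM or more, the median log2 difference from WT was 0.35 to 0.37 on chromosome 8 in the 4 KO clones, and on chromosome 6 it was -0.08 in D2A7 and 0.29 to 0.42 in the others. None of the 10 genes lies on either, and on their own chromosomes these medians were -0.07 to 0.04.

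NOTCH receptors are single-pass membrane proteins that are activated by DLL and JAG ligands on a neighbouring cell. Binding leads to cleavage by an ADAM protease and then by γ-secretase, and the freed intracellular domain enters the nucleus, where it turns RBPJ from a repressor into an activator of targets such as *Hes1* and *Hey1*. HES and HEY proteins are repressors that hold back proneural genes, and Notch signaling is known for balancing progenitor maintenance against neuronal differentiation.

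Values are FPKM, fragment counts scaled for exon length and sequencing depth, divided by a further factor per library that ranged from 0.965 to 1.01. The depth recovered from the values was estimated at 31098266 and 37921213 fragments for the WT libraries and at 48262663 to 86463817 for the KO libraries, so WT values of low genes rest on the fewest fragments. All 10 mESC markers of a fixed list were at 1 FPKM or more in every library. They summed to 1628 to 1681 FPKM in WT, 1493 to 1721 in *Dnttip1* KO and 1268 to 1462 in *Elmsan1* KO. Of the 10, 0 were called in either knockout, beside 6.51% and 6.43% of all genes. Negative log2 differences were found for 6 and 8 (medians -0.07 and -0.29). By clone, 1 was called higher in each of D2A7, D1E6 and E2G7 and 1 lower in E2E8, beside 10.7% to 17.1% of all genes. In E2E8 9 of the 10 were lower than in E2G7 (median log2 difference -0.24). Of fibroblast and primitive endoderm markers, 0 of 8 and 0 of 8 reached 1 FPKM in any library. Of 10 neural progenitor markers 3 reached it in every library, and the list summed to 81.6 to 91.8 FPKM in WT and 111 to 114 in *Dnttip1* KO. In *Elmsan1* KO the list summed to 66.0 and 64.7 FPKM in E2E8 and to 115 in each E2G7 library. *Nes* was called higher in both knockouts (log2 differences 1.30 and 0.80, adjusted p = 0.0178 and 0.0636) and *Olig2* lower in *Elmsan1* KO (-0.63, adjusted p = 0.0626). Of the 4 markers tested, 2 were positive and 2 negative in *Elmsan1* KO (median -0.11). There 0 were called higher and 1 lower in E2E8 and 2 higher and 0 lower in E2G7, beside 17.0% and 10.7% of all genes. Of 8 mesendoderm markers 3 reached 1 FPKM in every library. This list summed to 310.5 to 313 FPKM in WT, 253 and 260 in D2A7, 364 and 355 in D1E6 and 339.9 to 352 in *Elmsan1* KO. *T* was called lower in both knockouts (-1.16 and -0.95, adjusted p = 0.0225 and 0.0571). In *Elmsan1* KO *Gsc* was called lower (-1.52, adjusted p = 0.00255) and *Eomes* higher (0.70, adjusted p = 0.00905). The part of these markers in the values of the 10 genes was not tested. Of the targeted genes, *Dnttip1* was at 8.40 FPKM in WT and 3.57 in *Dnttip1* KO libraries, and *Elmsan1*, listed as *C130039O16Rik*, was at 5.53 FPKM in WT and 4.85 in *Elmsan1* KO libraries, so RNA marks the *Dnttip1* clones but hardly the *Elmsan1* clones. The study calls the libraries of a line biological replicates without saying whether cultures were separate. The p-values of a single clone thus measure the spread between libraries, which may be technical. Those of a pooled knockout mix that spread with the spread between its clones. In bulk RNA fewer cells of a type and less RNA per cell cannot be told apart.

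In WT mESCs *Hes1* was the most abundant of the 10 genes per exon length, with a mean of 30.7 FPKM, followed by *Jag1* at 13.7 FPKM. *Notch2* (4.76), *Notch3* (3.16), *Jag2* (3.05), *Notch1* (2.43), *Notch4* (2.07) and *Hey1* (1.58) followed in FPKM. Of neighbours in this order, *Notch3* and *Jag2* overlapped between the WT libraries. *Dll3* and *Dll1* were lowest, at means of 0.196 and 0.0609 FPKM. The delta-like genes were thus near the limit of detection in WT, with 6 and 12 fragments for *Dll1*. Averaged over all 10 libraries, 8 of the 10 genes were above 1 FPKM and the pair under it was *Dll1* and *Dll3*.

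**Figure D1:**
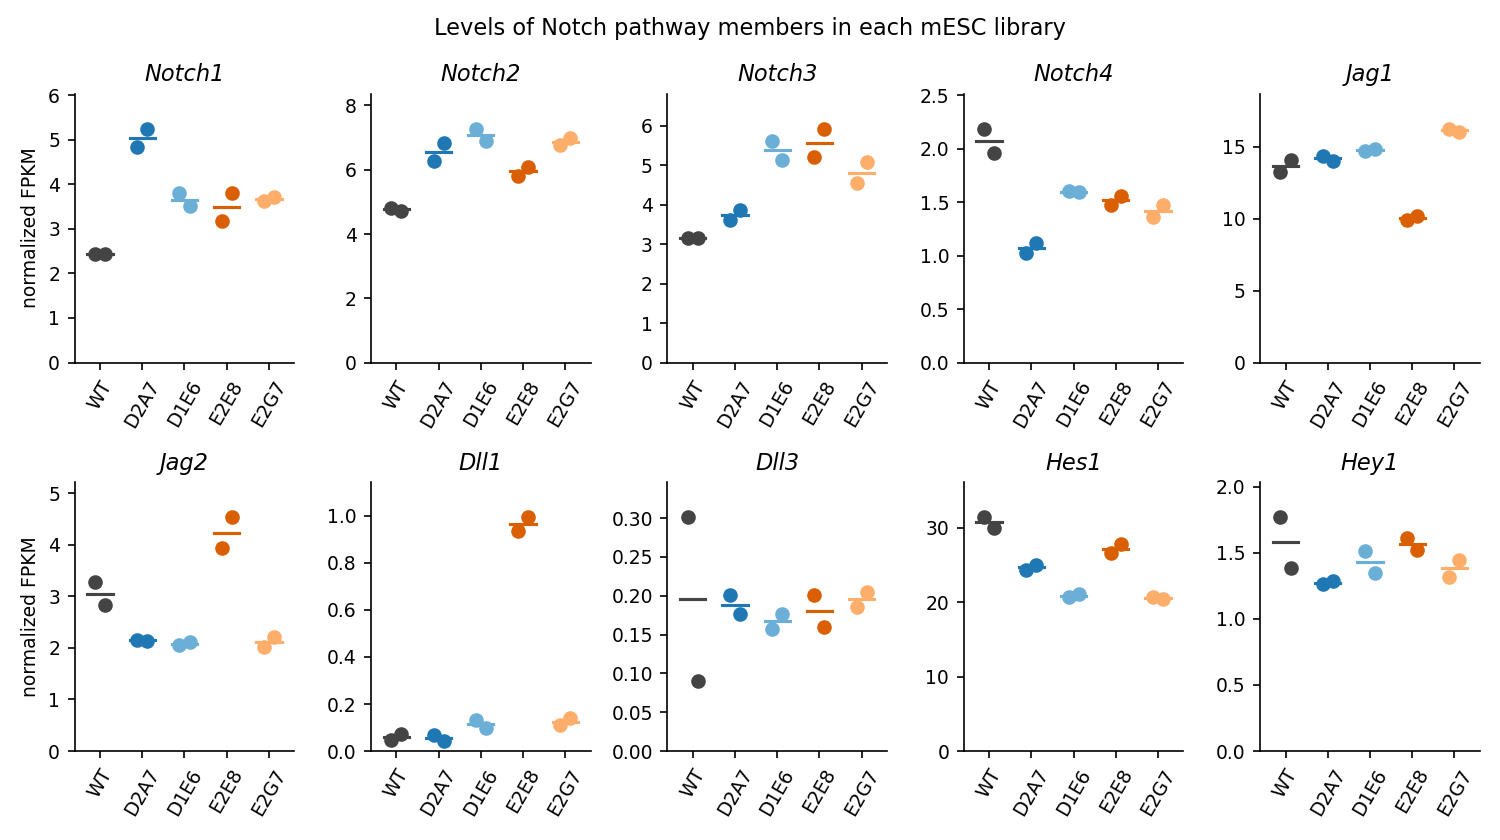
Normalized FPKM (y axis of each panel, from 0) of the 10 genes in every library, by line (x axis). Points are libraries (2 per line) and short lines are line means. *Notch1*, *Notch2* and *Notch3* were above both WT libraries in 8 of 8 KO libraries, *Notch4* and *Hes1* were below in 8 of 8, and clone E2E8 stood apart in *Dll1*, *Jag1* and *Jag2*.

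*Notch1*, *Notch2* and *Notch3* were above WT and *Notch4* below WT in every KO library. Such a lack of overlap was common. Of all genes tested, 21.1% were above and 20.8% below WT without overlap in *Dnttip1* KO, and 21.3% and 21.8% in *Elmsan1* KO. The share on 1 side of WT in all 8 KO libraries was not computed. In each knockout 1 of the 4 receptors passed the test. *Notch1* (ENSMUSG00000026923) was at 2.43 FPKM in each WT library. It was at 4.84 and 5.25 FPKM in D2A7, 3.79 and 3.50 in D1E6, 3.18 and 3.81 in E2E8, and 3.62 and 3.71 in E2G7. Every KO library was above WT, and D2A7 was above the other 3 clones, which overlapped. In *Dnttip1* KO mESCs *Notch1* rose 1.79-fold, from 2.43 ± 0.0016 (SD, n = 2) to 4.35 ± 0.832 FPKM (SD, n = 4), a log2 difference of 0.79 (standard error 0.178, adjusted p = 0.0467). A gene was called here, by the rule in the study's methods, at 1.5-fold or more with an unadjusted p below 0.01, in a limma fit on log2(FPKM + 0.1) over all genes tested. In *Elmsan1* KO mESCs the *Notch1* level was 3.58 ± 0.277 FPKM (SD, n = 4) and the log2 difference of 0.54 (adjusted p = 0.0258) missed the fold threshold of 0.585 on the log2 scale. The *Notch1* call in *Dnttip1* KO was lost without either WT library or without D2A7 replicate 1, with log2 differences of 0.79, 0.79 and 0.74 and adjusted p of 0.246, 0.223 and 0.0903, and with no filter on low values, with an adjusted p of 0.139. With an estimated correlation between libraries of a clone the adjusted p was 0.185, within a range of 0.0166 to 0.246 over all alternatives. The adjusted p of *Notch1* in *Elmsan1* KO was 0.383 with that correlation.

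*Notch2* (ENSMUSG00000027878), the most abundant receptor in every line's mean, was at 4.80 and 4.73 FPKM in WT. It was at 6.27 and 6.84 FPKM in D2A7, 7.28 and 6.89 in D1E6, 5.82 and 6.08 in E2E8, and 6.78 and 6.98 in E2G7. All 8 KO libraries were above WT, by less than 1.5-fold in each knockout. The log2 differences were 0.51 in *Dnttip1* KO (standard error 0.078, adjusted p = 0.0172) and 0.42 in *Elmsan1* KO mESCs (standard error 0.0962, adjusted p = 0.0439). These adjusted p were 0.177 and 0.281 with an estimated correlation between libraries of a clone.

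*Notch3* (ENSMUSG00000038146) was at 3.15 and 3.17 FPKM in WT. It was at 3.60 and 3.87 FPKM in D2A7, 5.62 and 5.14 in D1E6, 5.21 and 5.93 in E2E8, and 4.54 and 5.08 in E2G7. All 8 KO libraries were again above WT, and D2A7, the clone with the highest *Notch1*, had the lowest *Notch3* of the KO clones. *Notch3* rose 1.64-fold in *Elmsan1* KO mESCs, to 5.19 ± 0.573 FPKM (SD, n = 4), a log2 difference of 0.69 (standard error 0.115, adjusted p = 0.0175). Its adjusted p was 0.238 with an estimated correlation between libraries of a clone, the highest over all alternatives (lowest 0.0143), and this fit did not call it. Nor was it called with a pseudocount of 1 FPKM, at a log2 difference of 0.57. In *Dnttip1* KO mESCs the log2 difference was 0.49 (standard error 0.195, adjusted p = 0.172) and was not called.

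*Notch4* (ENSMUSG00000015468), a receptor best known from endothelium, was at 2.19 and 1.96 FPKM in WT. It was at 1.03 and 1.12 FPKM in D2A7, 1.60 and 1.59 in D1E6, 1.47 and 1.56 in E2E8, and 1.36 and 1.47 in E2G7. All 8 KO libraries were below WT, the opposite side from the other receptors, and D2A7 was lowest. The log2 difference was -0.62 in *Dnttip1* KO (standard error 0.214, adjusted p = 0.127) and -0.47 in *Elmsan1* KO mESCs (standard error 0.116, adjusted p = 0.0523), and neither was called over 4 libraries. Endothelial markers were also measured. *Tek*, one of the 8, fell from 9.67 to 5.03 FPKM in *Dnttip1* KO mESCs (log2 difference -0.93, adjusted p = 0.00324). The other 4 that were tested were not called there, with log2 differences of -0.02 (*Vwf*), 0.18 (*Kdr*), 0.19 (*Cldn5*) and -0.24 (*Esam*), and 0 of 5 were called in *Elmsan1* KO, where *Tek* was at -0.71 (adjusted p = 0.0842). By clone, 1 of the 5 was called higher in E2E8 and 1 lower in E2G7, beside 17.0% and 10.7% of all genes. The summed level of the list was 15.0 to 15.6 FPKM in WT and 10.3 to 11.0 in *Dnttip1* KO libraries. In *Elmsan1* KO it was 17.0 and 17.1 FPKM in E2E8, above WT, and 10.5 and 10.7 in E2G7, below WT. In each library 2 of the 8 genes were at 1 FPKM or more. The endothelial genes *Cdh5* and *Emcn* were at means of 0.00418 and 0 FPKM in WT, and the part of other cells in the *Notch4* values was not tested.

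Of the 4 receptors, 1 was called higher in each knockout, and of all 10 genes 9 were tested in *Dnttip1* KO and 10 in *Elmsan1* KO mESCs. *Dll1* did not reach the filter of 0.1 FPKM in at least 2 libraries in the former. Over all genes tested against WT, 6.51% were called in *Dnttip1* KO (3.26% higher, 3.25% lower) and 6.43% in *Elmsan1* KO mESCs (2.74% higher, 3.68% lower). In *Elmsan1* KO *Dll1* passed the filter through KO libraries alone, and the counts and median that follow leave it out. Against these shares, 1 gene of 9 in each knockout is too few to set the group apart from other genes. Libraries did not overlap with WT for 3 genes in the upward and 3 in the downward direction in *Dnttip1* KO, where 21.1% and 20.8% of all genes did so. In *Elmsan1* KO mESCs 3 genes were higher and 2 lower without overlap, against 21.3% and 21.8% of all genes. The share of all genes on the same side of WT in every library of both knockouts was not computed. The median log2 difference of the tested genes was 0.0036 in *Dnttip1* KO, beside 0.0237 over all genes, and -0.0254 in *Elmsan1* KO, beside 0.003. The comparisons with WT share the WT libraries, so they are not independent of each other. Taken one gene at a time, an exact two-sided permutation test of 2 libraries against 4 could not go below 0.0667.

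Summed over the 4 receptors, WT libraries held 12.4 ± 0.194 FPKM (SD, n = 2). The sums in the KO lines were 16.4 (D2A7), 17.7 (D1E6), 16.5 (E2E8) and 16.8 FPKM (E2G7), and the 8 KO libraries ranged from 15.7 to 18.3, all above WT. *Notch4* made up 16.7% of the receptor sum in WT and 6.54% in D2A7, 9.02% in D1E6, 9.18% in E2E8 and 8.44% in E2G7. *Notch1* took 19.6% in WT and 30.7% in D2A7, and stayed between 20.6% and 21.9% in the other clones, where the share of *Notch3* was larger, at 28.7% to 33.7% against 25.4% in WT.

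**Figure D2:**
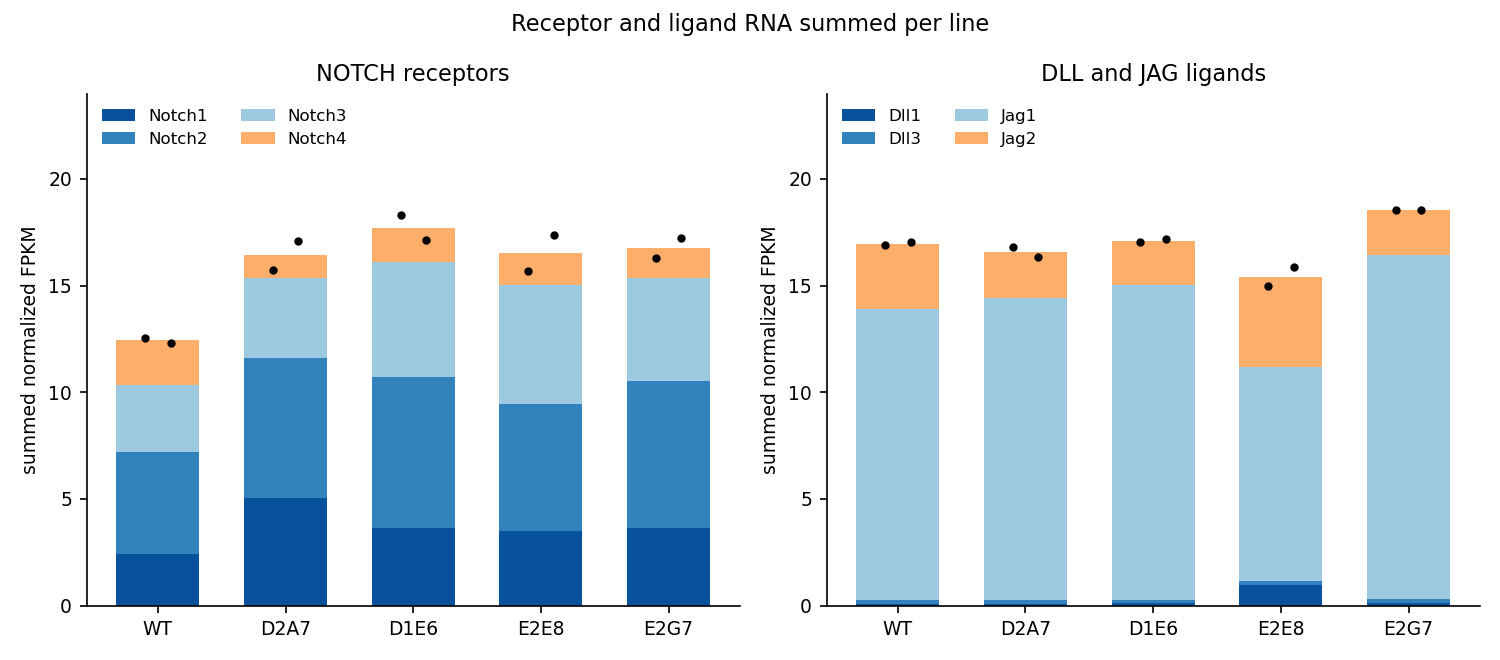
Summed normalized FPKM (y axis, from 0) of the 4 receptors (left) and the 4 ligands (right) in each line (x axis). Stacked bars are line means of each gene and points are the sums of single libraries, 2 per line. The receptor sum was 12.4 FPKM in WT and 16.4 to 17.7 in the KO lines, while the ligand sum was 15.4 to 18.5 FPKM in the KO lines around 17.0 in WT.

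In NCBIM37 with GENCODE vM1, *Notch1* lies on chromosome 2 from 26313423 to 26372183, *Notch2* on chromosome 3 from 97817461 to 97954290, *Notch3* on chromosome 17 from 32257765 to 32303825 and *Notch4* on chromosome 17 from 34701213 to 34725448. Genes annotated on the opposite strand overlap 3 of them. These are *0610009E02Rik* and *Gm13568* at *Notch1* (at most 0.32 and 0.185 FPKM), *Gm17276* at *Notch3* (at most 0.169 FPKM) and *Gm20462* at *Notch4* (0 fragments in all libraries). The library kit keeps strand, and whether the counting used it is not given in the sources used here. The 4 promoters are shown because *Notch1* to *Notch3* lay on 1 side of WT and *Notch4* on the other. Each is the 250 bases before the RefSeq start in GRCm38.p6, on the strand of the gene and written 5′ to 3′. Capitals mark matches to the N box, CACNAG, a motif known as a site of HES repressors, on either strand.
Notch1, chr2:26503823-26504072, minus strand: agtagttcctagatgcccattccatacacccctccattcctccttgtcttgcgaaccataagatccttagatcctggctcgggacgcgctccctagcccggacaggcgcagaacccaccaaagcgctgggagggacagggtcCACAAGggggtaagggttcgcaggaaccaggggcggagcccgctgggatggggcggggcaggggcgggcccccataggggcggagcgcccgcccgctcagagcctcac
Notch2, chr3:98013288-98013537, plus strand: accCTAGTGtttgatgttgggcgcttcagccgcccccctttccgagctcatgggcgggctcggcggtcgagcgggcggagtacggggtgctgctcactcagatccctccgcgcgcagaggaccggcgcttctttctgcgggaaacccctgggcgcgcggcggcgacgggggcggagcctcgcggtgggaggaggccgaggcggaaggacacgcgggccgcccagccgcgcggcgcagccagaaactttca
Notch3, chr17:32166891-32167140, minus strand: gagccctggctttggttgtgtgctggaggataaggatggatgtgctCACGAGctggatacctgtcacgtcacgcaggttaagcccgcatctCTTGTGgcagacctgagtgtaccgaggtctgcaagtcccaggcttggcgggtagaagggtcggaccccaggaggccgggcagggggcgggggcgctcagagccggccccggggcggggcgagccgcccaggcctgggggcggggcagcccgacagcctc
Notch4, chr17:34564045-34564294, plus strand: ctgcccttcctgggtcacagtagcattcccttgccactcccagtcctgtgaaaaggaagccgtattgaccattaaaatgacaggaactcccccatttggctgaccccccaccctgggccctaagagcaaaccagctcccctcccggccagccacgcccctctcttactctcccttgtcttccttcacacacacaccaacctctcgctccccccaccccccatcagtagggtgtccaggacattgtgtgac
The *Notch1* promoter holds 1 N box, starting 108 bases before the start, *Notch2* holds 1 at 247 bases and *Notch3* holds 2, at 204 and 159 bases. The *Notch4* window holds 0, as do those of *Dll1*, *Dll3*, *Jag1* and *Jag2*. Since 36.7% of 32851 RefSeq promoter windows of this length hold an N box, its presence does not single out these genes. The core RBPJ motif TGGGAA, found on either strand in 21.6% of windows, was in 0 of the windows of the 8 genes with an entry. The target genes *Hes1* and *Hey1* had no entry, so their promoters were not searched. The promoters also differed in CpG dinucleotides, with 16 in *Notch1*, 34 in *Notch2*, 17 in *Notch3* and 4 in *Notch4*, around a median of 6 over all windows. These are descriptions of the reference letters, and binding was not measured here.

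Among the ligands, *Jag1* and *Jag2* carried nearly all of the RNA, and clone E2E8 differed from the other clones in 3 of the 4 genes. *Jag1* (ENSMUSG00000027276; chromosome 2, 136907192 to 136942380), whose product signals through several NOTCH receptors, was at 13.3 and 14.1 FPKM in WT. It was at 14.4 and 14.0 FPKM in D2A7, 14.7 and 14.8 in D1E6, 9.89 and 10.2 in E2E8, and 16.25 and 15.98 in E2G7. The *Elmsan1* clones thus fell on opposite sides of WT. Averaged over clones, the log2 difference from WT was 0.08 in *Dnttip1* KO, with a 95% interval of -0.05 to 0.21. In *Elmsan1* KO it was -0.10, with an interval of -0.68 to 0.48, and neither was called.

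*Jag2* (ENSMUSG00000002799; chromosome 12, 114146801 to 114167706) was at 3.28 and 2.82 FPKM in WT. It was at 2.15 and 2.14 FPKM in D2A7, 2.05 and 2.11 in D1E6, 3.93 and 4.53 in E2E8, and 2.01 and 2.20 in E2G7. In 6 KO libraries *Jag2* was below WT, and in both E2E8 libraries it was above. The log2 difference in *Dnttip1* KO was -0.51 (standard error 0.0976, adjusted p = 0.0319), under the fold threshold. This adjusted p was 0.336 with an estimated correlation between libraries of a clone. In *Elmsan1* KO the log2 difference was -0.03 (95% interval -0.87 to 0.82), a mean over clones that lay on opposite sides of WT.

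*Dll1* (ENSMUSG00000014773; chromosome 17, 15504318 to 15513836), a ligand known for driving lateral inhibition in the nervous system, was at 0.047 and 0.074 FPKM in WT. It was at 0.069 and 0.044 FPKM in D2A7, 0.132 and 0.0975 in D1E6, 0.937 and 0.994 in E2E8, and 0.109 and 0.140 in E2G7. These values rest on 6 and 12 fragments in WT, 10 to 51 in the other 3 clones and 301 and 284 in E2E8. The *Dll1* level of E2E8 was therefore apart from every other library, and the *Elmsan1* KO mean of 0.545 ± 0.486 FPKM (SD, n = 4) describes neither clone. Over both clones the log2 difference from WT was 1.61 (standard error 0.792, adjusted p = 0.243) and was not called. It was 0.49 with a pseudocount of 1 FPKM and 2.37 with voom, not called in either. *Dll3* (ENSMUSG00000003436; chromosome 7, 29076673 to 29087257), which acts within its own cell as an inhibitor of Notch signaling, was at 0.301 and 0.0908 FPKM in WT and between 0.158 and 0.205 FPKM in all KO libraries. The KO values lay between those of the WT libraries, with 10 to 51 fragments in any library, so the *Dll3* log2 differences of 0.00 and 0.05 carry 95% intervals of -0.77 to 0.77 and -0.70 to 0.81.

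The ligand sum was 17.0 ± 0.121 FPKM in WT (SD, n = 2), 16.6 in D2A7, 17.1 in D1E6, 15.4 in E2E8 and 18.5 in E2G7. *Jag1* supplied 80.5% of it in WT, 65.1% in E2E8 and 86.9% in E2G7. *Jag2* supplied 18.0% in WT, 27.4% in E2E8 and 11.4% in E2G7, and *Dll1* reached 6.26% in E2E8 beside at most 0.672% in the other lines.

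*Hes1* lay below WT in both knockouts, and *Hey1* overlapped with WT. *Hes1* (ENSMUSG00000022528; chromosome 16, 30064470 to 30067882), a repressor that many signals besides Notch also induce, was at 31.4 and 30.0 FPKM in WT. It was at 24.3 and 25.0 FPKM in D2A7, 20.7 and 21.1 in D1E6, 26.6 and 27.8 in E2E8, and 20.8 and 20.4 in E2G7. All 8 KO libraries were below WT, while the summed receptor level was above WT in all 8. How many of all genes lie on 1 side of WT in all 8 was not computed. The log2 difference was -0.44 in *Dnttip1* KO (standard error 0.095, adjusted p = 0.0433) and -0.38 in *Elmsan1* KO mESCs (standard error 0.145, adjusted p = 0.156), under the fold threshold in both. These adjusted p were 0.176 and 0.42 with an estimated correlation between libraries of a clone. *Hey1* (ENSMUSG00000040289; chromosome 3, 8663362 to 8667039) was at 1.77 and 1.39 FPKM in WT, and from 1.26 to 1.61 FPKM in the KO libraries, 4 of which were below both WT libraries. Its log2 differences were -0.20 in *Dnttip1* KO, with a 95% interval of -0.55 to 0.15, and -0.09 in *Elmsan1* KO, with an interval of -0.44 to 0.27.

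Compared clone by clone with WT, in a fit of all 10 libraries, 1 or 2 of the genes were called in each clone. In D2A7 2 of 9 tested genes were called, beside 17.1% of all genes. These were *Notch1*, which rose by a log2 difference of 1.02 (standard error 0.0874, adjusted p = 5.72e-05), and *Notch4*, which fell by 0.89 on the log2 scale (standard error 0.0847, adjusted p = 9.73e-05). With a pseudocount of 1 FPKM in place of 0.1 the *Notch4* value was -0.57 and was not called. In D1E6 1 of 9 was called, beside 11.7%, and this was *Notch3*, which rose by 0.75 (standard error 0.0832, adjusted p = 0.000278). *Notch1*, *Notch2* and *Hes1* were close to the fold threshold in D1E6, with log2 differences of 0.57, 0.56 and -0.55. In E2E8 1 of the 9 genes other than *Dll1* was called, beside 17.0% of all genes, and this was *Notch3*, with a log2 difference of 0.80 (standard error 0.0833, adjusted p = 0.000143). *Jag1* and *Jag2* differed from WT in E2E8 by -0.44 (adjusted p = 4.6e-05) and 0.46 (adjusted p = 0.00417), under the fold. *Dll1* passed the filter in that comparison through E2E8 alone, so its values are a description. Its mean there was 15.9 times the WT mean, and its log2 difference was 2.73, with a range from 0.89 with a pseudocount of 1 FPKM to 3.91 with voom. In E2G7 1 of the same 9 was called, beside 10.7%, again *Notch3*, which rose by 0.59 (standard error 0.0832, adjusted p = 0.000988) and sat at the threshold. It was 0.58 without WT replicate 1, 0.51 without E2G7 replicate 2 and 0.48 with a pseudocount of 1 FPKM, all under it. *Hes1* in E2G7 differed by -0.58 and *Notch1* by 0.57, just short of the fold. *Notch3* was thus called in 3 of the 4 clones and *Notch1* in D2A7, and the 4 contrasts share the WT libraries.

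**Figure D3:**
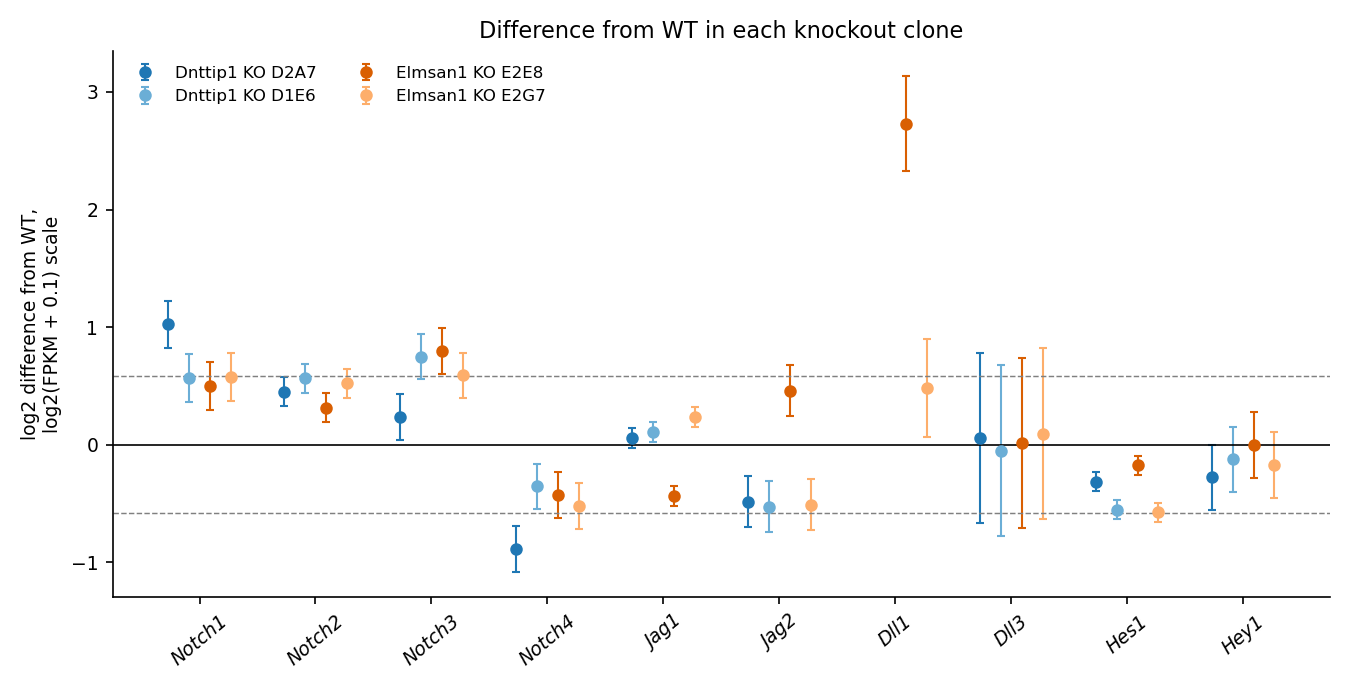
Log2 difference from WT on the log2(FPKM + 0.1) scale (y axis) for each gene (x axis) in the 4 KO clones. Points are estimates from the fit of all 10 libraries (2 per clone and 2 of WT), bars are 95% intervals and dashed lines mark 1.5-fold. *Dll1* was tested only in the *Elmsan1* clones. *Notch1* to *Notch3* were above 0 and *Notch4* below 0 in each clone, and *Dll1* in E2E8 was the farthest from WT at 2.73.

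The clones of a knockout were compared directly to ask whether they differ. Between E2E8 and E2G7 3 of 10 genes were called, beside 13.2% of all genes, and all 3 were ligands. *Dll1* was higher in E2E8 by a log2 difference of 2.25 (standard error 0.181, adjusted p = 5.73e-05; 0.81 with a pseudocount of 1 FPKM and 2.95 with voom), *Jag2* by 0.97 (standard error 0.0937, adjusted p = 0.000135), and *Jag1* was lower by a log2 difference of -0.68 (standard error 0.0366, adjusted p = 1.27e-05). *Hes1* was higher in E2E8 by 0.40 (adjusted p = 8.68e-05) without reaching the fold. The receptors of these clones were closer, with log2 differences from -0.21 (*Notch2*, adjusted p = 0.0133) to 0.21 (*Notch3*, adjusted p = 0.0715).

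Between D2A7 and D1E6 0 of 9 genes were called by limma, beside 13.8% of all genes. An unadjusted p under 0.05 was reached by 4 of them, and voom on the recovered fragments called 0 and put 5 under 0.05. The 4 genes with an adjusted p under 0.05 were *Notch1*, higher in D2A7 by 0.46 (adjusted p = 0.00376), *Hes1*, higher by 0.24 (adjusted p = 0.000968), and *Notch3* and *Notch4*, with log2 differences of -0.51 (adjusted p = 0.00166) and -0.53 (adjusted p = 0.00146).

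Set against each other, *Dnttip1* KO and *Elmsan1* KO mESCs (4 libraries each) differed in 0 of the 9 genes other than *Dll1* by limma, beside 1.52% of all genes. Among these 9 no unadjusted p was under 0.05, and voom called 0 and put 0 under 0.05. *Dll1* passed the filter in this comparison through the *Elmsan1* KO libraries, so its log2 difference of -1.42 is a description. For *Notch1*, called against WT in *Dnttip1* KO alone, the log2 difference between the knockouts was 0.26 (95% interval -0.06 to 0.57, adjusted p = 0.37). For *Notch3*, called in *Elmsan1* KO alone, it was -0.20 (95% interval -0.55 to 0.15, adjusted p = 0.502). A difference between the knockouts in either receptor was therefore not shown, and the intervals reach to just under 1.5-fold.

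Beside the 10 genes, a list of 52 other genes of the pathway was followed, of which 44 passed the filter in each knockout. In *Dnttip1* KO 1 was called higher and 0 lower by limma, beside 3.26% and 3.25% of all genes. There 7 and 3 had an unadjusted p under 0.05, and voom called 1 and 0. In *Elmsan1* KO 2 were called higher and 0 lower, beside 2.74% and 3.68% of all genes. There 4 and 6 were under 0.05, with the same counts by voom. The share of all genes at an unadjusted p under 0.05 was not computed, so the counts under 0.05 do not show whether the list differs from other genes. The medians of the list were 0.0101 and 0.0211 on the log2 scale, beside 0.0237 and 0.003 over all genes. *Nrarp*, a target of Notch that feeds back by destabilizing the NOTCH intracellular domain, was at 1.46 and 1.60 FPKM in WT and at 2.12 to 2.69 FPKM in the KO libraries, with no overlap. It rose by 0.61 in *Dnttip1* KO (standard error 0.112, adjusted p = 0.0288) and 0.69 in *Elmsan1* KO mESCs (standard error 0.11, adjusted p = 0.0157). With an estimated correlation between libraries of a clone these adjusted p were 0.301 and 0.203, and the former call was lost. *Nrarp* and *Hes1*, both known as Notch targets, thus lay on opposite sides of WT in all 8 KO libraries, a trait whose share over all genes was not computed.

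*Dtx1*, which encodes the ubiquitin ligase Deltex that binds NOTCH receptors, was at 12.4 and 10.7 FPKM in WT. It was at 13.8 and 15.9 FPKM in D2A7, 21.9 and 22.4 in D1E6, 26.0 and 28.7 in E2E8, and 20.1 and 20.9 in E2G7. It rose 2.07-fold in *Elmsan1* KO mESCs, a log2 difference of 1.03 (standard error 0.161, adjusted p = 0.015, or 0.136 with an estimated correlation). In *Dnttip1* KO mESCs the log2 difference was 0.65 (adjusted p = 0.122), with D2A7 near WT and D1E6 near the *Elmsan1* clones. *Rbpj*, the DNA-binding partner of the pathway, had log2 differences of 0.16 (adjusted p = 0.0852) and 0.01 (adjusted p = 0.932).

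**Figure D4:**
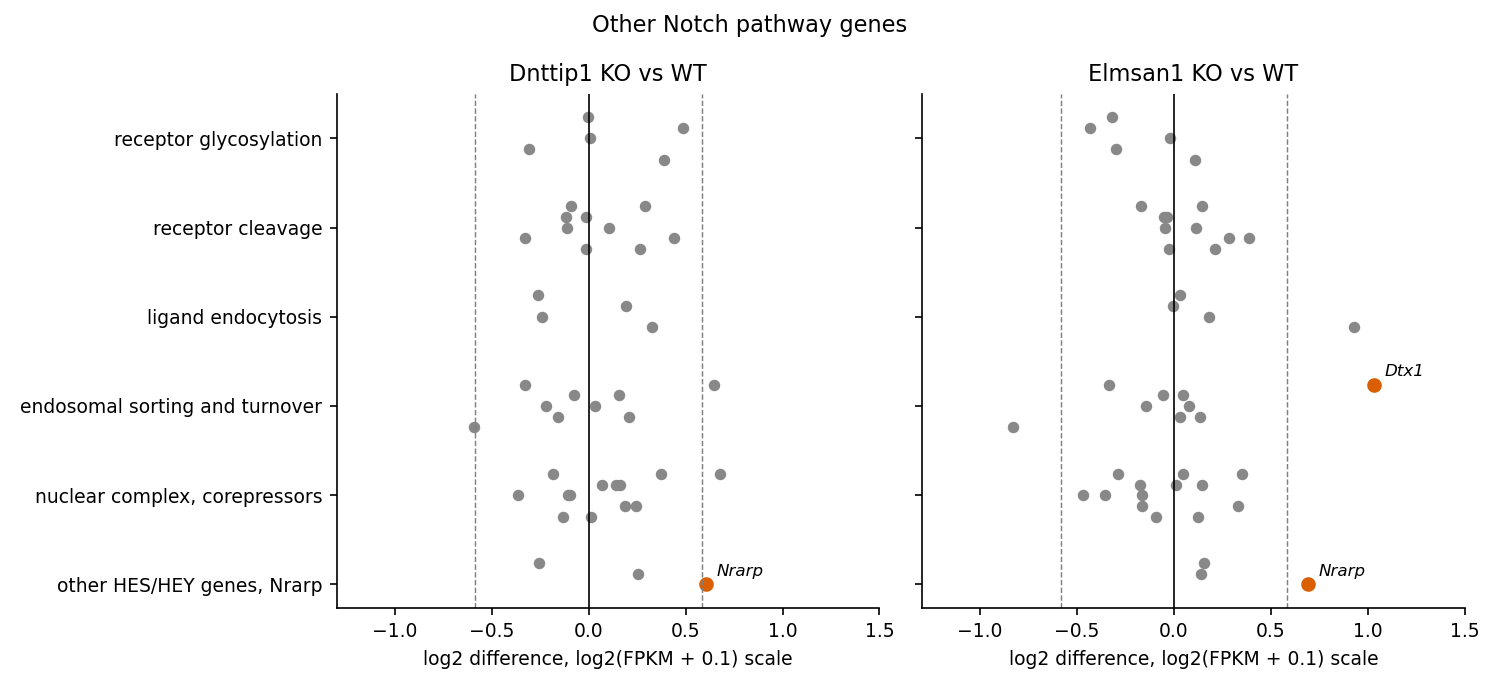
Log2 difference from WT on the log2(FPKM + 0.1) scale (x axis) of the 44 other pathway genes tested in *Dnttip1* KO (left) and *Elmsan1* KO mESCs (right), by role (y axis). Each point is a gene, orange and named where called, and dashed lines mark 1.5-fold. The called genes were *Nrarp* in both panels, at 0.61 and 0.69, and *Dtx1* at 1.03 on the right.

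The 8 genes of this list that did not pass the filter were the ligand genes *Dll4*, *Dlk1* and *Dlk2* and the HES and HEY family genes *Hes2*, *Hes3*, *Hes5*, *Hes7* and *Heyl*. Between the *Elmsan1* clones 4 of 44 listed genes were higher and 2 lower in E2E8, beside 13.2% of all genes called. Between the *Dnttip1* clones the counts were the same, with 4 of 44 higher and 2 lower in D2A7, beside 13.8% of all genes. Neither count sets the list or the *Elmsan1* clones apart. The genes called between the *Elmsan1* clones are named here after their values were seen. *Lfng*, a fringe glycosyltransferase that alters which ligands a NOTCH receptor answers to, was at 1.76 FPKM in E2E8 and 5.77 in E2G7, with 4.03 in WT, and was lower in E2E8 than in E2G7 by a log2 difference of -1.66 (standard error 0.074, adjusted p = 6.48e-06). *Neurl1b*, a ubiquitin ligase for ligand endocytosis, was at 0.786 FPKM in E2E8, 0.425 in E2G7 and 0.259 in WT, and the clones differed by a log2 difference of 0.75 (standard error 0.121, adjusted p = 0.00154). The γ-secretase subunit genes *Aph1b* and *Aph1c* were at 0.98 and 1.25 FPKM in E2E8, 0.33 and 0.402 in E2G7 and 0.423 and 0.612 in WT. As close paralogs they may share reads. *Dtx4* was at 0.455 FPKM in E2E8, 0.239 in E2G7 and 0.674 in WT, so both clones were below WT. *Tle4*, a corepressor, was at 16.3 FPKM in E2E8, 25.9 in E2G7 and 26.3 in WT.

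At the *Dll1* locus, genes within 200000 bases were read out after the *Dll1* values had been seen. The long non-coding RNA *Gm5091*, 126571 bases from *Dll1*, was at 0 fragments in both WT libraries, at most 4 in the *Dnttip1* clones, 25 and 20 in E2E8, and 7 and 8 in E2G7. *Fam120b*, beside *Dll1*, was at 2.80 FPKM in WT and 1.66 in E2E8, and *Psmb1*, *Tbp* and *Pdcd2* differed from WT in E2E8 by -0.15, -0.11 and -0.23 on the log2 scale. *A930024N18Rik*, which overlaps *Dll1* on the opposite strand, had at most 4 fragments in any library, beside 301 for *Dll1* in E2E8. *Prdm9* was at 0.257 FPKM in WT and 0.445 in E2E8. Leaving out the overlapping gene, 2 of the neighbours were thus above and 4 below their WT mean in E2E8.

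The genes whose log2 levels followed each receptor most closely over the 10 libraries, among 12207 genes averaging 1 FPKM or more, were *Glrx2* for *Notch1* (Pearson r = 0.987), *Sbno2* for *Notch2* (0.993), *Epha1* for *Notch3* (0.984) and *Cxxc5* for *Notch4* (0.981). For the ligands they were *Topors* for *Jag1* (0.981) and *Cenpv* for *Jag2* (0.989), and for the targets *Atp2b4* for *Hes1* (0.995) and *Cox7c* for *Hey1* (0.965). The libraries come in pairs of a line, so these values describe 5 lines, and the highest of so many genes is high by selection.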

How the data were processed

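RNA-seq libraries of WT, *Dnttip1* KO and *Elmsan1* KO mESCs (2 per line, 10 in all) were re-analysed from the FPKM table that the authors deposited. The authors sequenced stranded total RNA, mapped reads to NCBIM37 with the StrongArm pipeline, took gene counts from HT-seq and, for their own tests, used TMM in edgeR 3.16.5, voom and limma in R 3.3.1. Their methods name GENCODE vM20, whereas 97.2% of the identifiers are in GENCODE vM1, which was used here for positions and exon lengths. FPKM times exon length fell within 0.05 of whole multiples of a step for 98.3% to 98.6% of low values, which gave the fragments behind each value.

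Each library was divided by its median ratio to the geometric mean over 11270 genes. Each comparison kept the genes that reached 0.1 FPKM in 2 or more of its libraries. Values were taken as log2(FPKM + 0.1) and fitted by limma 3.58.1 under R 4.3.3 (variance trend, two-sided, Benjamini-Hochberg adjustment over all genes tested), which understates changes of low genes. The fit was run on simulated data without a clone effect, which does not bear on the correlation between libraries of a clone. Knockouts were tested on the libraries compared, and single clones in a fit of all 10 libraries. Alternatives were other pseudocounts, filters, normalization and calls, voom, a replicate block, the correlation within clones and each library left out. Named genes were the 10 members, listed pathway genes called in a knockout, *Rbpj*, the targeted genes and the most similar genes. Markers, the neighbours of *Dll1* and the pathway genes called between *Elmsan1* clones were named after their values were seen. The members and lists were chosen with earlier results of these data known. Promoters are from RefSeq (GRCm38.p6), with entries for 8 of the 10 genes. Python 3.11.15 was used for tables and figures.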

Additional observations from a re-analysis of the deposited data

Results flagged for a closer look

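The *Elmsan1* KO clones differed from each other in 3 ligand genes in a direct test of the difference, all beyond the spread between libraries of a clone. E2E8 differed from E2G7 by a log2 difference of 2.25 for *Dll1*, 0.97 for *Jag2* and -0.68 for *Jag1*. For *Jag1* and *Jag2* the clones also lay on opposite sides of WT in every library. *Jag1* in E2E8 was at 0.734 of the WT mean and in E2G7 at 1.18, while *Jag2* was at 1.39 of the WT mean in E2E8 and at 0.691 in E2G7. Both clones are *Elmsan1* KO, so these are differences between clones of the same knockout, and their source was not tested. Each clone is a single line, so in its difference from WT the clone and any effect of the knockout cannot be told apart.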

How the results depend on the processing

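Of 137 recomputed counts of called genes, 114 stayed within 1.5 times the reported count. For *Dnttip1* KO against WT (reported 1) the count was 0 with no filter and 2 with all libraries in a single fit, and 0 to 1 with a library left out. For *Elmsan1* KO against WT (1) it was 0 with a pseudocount of 1 and 0 with the correlation within clones, and 1 to 2 with a library left out. Between the knockouts (0) it was 0 to 1 with a library left out, and the gene called was *Dll1*. For D2A7 (2) it was 1 with a pseudocount of 1 and 2 to 3 with a library left out. For D1E6 (1) it was 3 on the FPKM as deposited and 1 to 3 with a library left out. For E2E8 (2) it was 1 among genes averaging 1 FPKM or more and 1 to 2 with a library left out. These counts include *Dll1*, which no longer passed the filter without either E2E8 library, and without E2E8 replicate 1 *Notch1* was newly called. For E2G7 (1) it was 0 with a pseudocount of 1, 2 with 0.01, 2 on the FPKM as deposited, 2 with voom, and 0 to 4 with a library left out. Between D2A7 and D1E6 (0) it was 0 to 1 with a library left out. The causes were not tested.

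Of the log2 differences of single genes, 1234 kept direction and side of the threshold, 21 newly passed it, 10 lost it and 28 changed sign. With a pseudocount of 1, *Dll3* changed sign to -0.0167 (*Dnttip1* KO), -0.0047 (*Elmsan1* KO), -0.00335 (D2A7) and -0.0141 (E2E8), and with voom to 0.0741 in D1E6. *Hey1* in E2E8 changed to 0.0246 on the FPKM as deposited and 0.0165 with voom. With a library left out, *Dll3* ranged from -0.53 to 0.54 in *Dnttip1* KO, -0.48 to 0.59 in *Elmsan1* KO, -0.48 to 0.60 in D2A7, -0.59 to 0.48 in D1E6, -0.52 to 0.55 in E2E8, -0.44 to 0.63 in E2G7 and -0.188 to 0.027 between the *Elmsan1* clones. *Hey1* ranged from -0.253 to 0.0774 in *Elmsan1* KO, -0.292 to 0.0387 in D1E6 and -0.17 to 0.16 in E2E8. In *Elmsan1* KO *Jag1* ranged from -0.219 to 0.0181 and *Jag2* from -0.22 to 0.16, *Hes1* between the knockouts from -0.129 to 0.0181 and *Notch1* between the *Elmsan1* clones from -0.198 to 0.0554.

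Over all genes, calls in *Dnttip1* KO fell from 1135 to 540 with a pseudocount of 1, 664 among genes averaging 1 FPKM or more and 538 with the correlation within clones, and those in *Elmsan1* KO from 1106 to 525, 603 and 486. Between the knockouts they were 268, and 79, 112, 54, 151 without a filter, 171 with the replicate block and 4 at an adjusted p under 0.05.

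Libraries with the same replicate number share only a number. Their deviations correlated between lines from -0.139 to 0.192, so the numbers do not pair them. With the replicate block the counts of members called were 1 in *Dnttip1* KO, 1 in *Elmsan1* KO and 0 between them, and 2, 1, 2 and 1 in D2A7, D1E6, E2E8 and E2G7.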
